A study of Mus musculus with 6 samples.

Results

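Values of 10 genes of white fat were followed in RNA from mouse hearts, out of 45777 genes in the table. They were the adipokines and secreted proteins Adipoq, Lep, Retn and Cfd, the lipid droplet proteins Plin1, Plin4 and Cidec, and Fabp4, Car3 and Adig, which bind lipid or are abundant in fat cells. They were found by gene symbol. The 10 genes were chosen from their measured levels in these same 6 libraries, so their levels are given as a description, with no test and no p-value. The hearts came from female nude mice of the strain BALB/c (CAnN.Cg-Foxn1nu/Crl), which have no thymus, listed as 6 weeks of age. Every mouse in every group, Control included, carried a subcutaneous tumour of MDA-MB-231, a human breast cancer cell line, and treatment began 7 days after the tumour cells were injected and ran for 3 weeks. The 6 groups were Control (vehicle), Rh2-20 and Rh2-30 (ginsenoside Rh2, a ginseng saponin, at 20 or 30 mg/kg every day), Dox (doxorubicin, an anthracycline, at 2 mg/kg every other day to a cumulative dose of 22 mg/kg), and Rh2-20 + Dox and Rh2-30 + Dox, which had both agents. Each group had 1 library, pooled from 5 hearts, so there is no replicate check of any difference between groups.

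White adipocytes store triglyceride in a single large lipid droplet and secrete hormones, the adipokines, that act on feeding, insulin action and inflammation. Their programme is set up by the nuclear receptor PPARG together with the C/EBP factors, which switch on the droplet coat proteins, the lipid carriers and the adipokines. Hearts carry small fat depots, above all in the epicardium and in the groove between atria and ventricles, and fat also lies around the great vessels at the base of the heart. In a bulk library, fewer cells of a type and less RNA per cell cannot be told apart.

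The libraries held 86164411 to 90621002 counts each, and the 18328 genes whose mean count was 10 or more were compared. Of the 10 genes, 9 passed this filter, and Lep did not. The 8 cardiomyocyte markers were well above 0 in every library, with a summed level of 19939 to 27709 normalized CPM (counts scaled to a common library size). A pair of libraries stood apart, in opposite directions. In Rh2-30, 8.46% of the genes compared were at least 2-fold higher than in Control and 1.65% at least 2-fold lower. In Rh2-30 + Dox, 6.85% were at least 2-fold lower and 4.06% at least 2-fold higher. The span of each member over the libraries is therefore also given without both.

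To show what stands before the start of genes that moved together, the 200 bases upstream of the annotated start were read from RefSeq (GRCm38.p6) for Adipoq (chr16:23146336-23146535, plus strand), Cidec (chr6:113435761-113435960, minus strand), Cfd (chr10:79890653-79890852, plus strand) and Retn (chr8:3655570-3655769, plus strand). Capitals mark matches to TTNNGNAA, the pattern bound by C/EBP factors, on either strand.
Adipoq: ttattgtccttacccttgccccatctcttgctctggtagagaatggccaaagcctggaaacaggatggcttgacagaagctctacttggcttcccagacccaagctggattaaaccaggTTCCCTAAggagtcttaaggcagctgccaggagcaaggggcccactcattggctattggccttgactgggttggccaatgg
Cidec: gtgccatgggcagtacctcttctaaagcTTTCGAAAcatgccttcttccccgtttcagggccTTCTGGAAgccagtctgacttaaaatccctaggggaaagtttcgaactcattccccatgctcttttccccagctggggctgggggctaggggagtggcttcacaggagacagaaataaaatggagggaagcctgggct
Cfd: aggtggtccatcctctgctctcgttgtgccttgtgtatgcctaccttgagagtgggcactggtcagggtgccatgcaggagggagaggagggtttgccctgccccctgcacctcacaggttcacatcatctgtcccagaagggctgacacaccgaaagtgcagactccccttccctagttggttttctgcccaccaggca
Retn: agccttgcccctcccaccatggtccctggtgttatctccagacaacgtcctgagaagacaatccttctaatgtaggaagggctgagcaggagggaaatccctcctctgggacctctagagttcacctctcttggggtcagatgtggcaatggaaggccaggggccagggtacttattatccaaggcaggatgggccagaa
Promoter entries were found for 8 of the 10 genes, and Fabp4 and Car3 had none. TTNNGNAA was present in at least 1 entry of 5 of the 8 (Adig, Adipoq, Cidec, Lep and Plin1), and in 30.0% of all 32851 promoter entries in the same window. AGGTCA, the half-site of PPARG and related receptors, was present in 1 of the 8 (Adig) and in 11.4% of all entries. A pair of AGGTCA separated by a single base, on either strand, was in none of the 8 and in 0.0335% of all entries. A match of letters is a description only, and the first motif can overlap its own reverse strand, as in Cidec.

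Among the secreted proteins, Adipoq, Cfd and Retn were highest in Rh2-30 and lowest in Rh2-30 + Dox, with Dox next to the top. Adipoq encodes adiponectin, the most abundant hormone of fat cells (chromosome 16, 23146536 to 23157968). Its count was 56 in Control, 330 in Rh2-20, 3716 in Rh2-30, 650 in Dox, 317 in Rh2-20 + Dox and 8 in Rh2-30 + Dox. In the same order its level per length was 0.404, 2.32, 26.1, 4.72, 2.18 and 0.0482 FPKM. Against Control, Adipoq was 58.3-fold higher in Rh2-30 (log2 difference 5.85, 95% counting interval 5.49 to 6.27) and 11.5-fold higher in Dox (log2 difference 3.51, interval 3.13 to 3.94). It was 7.30-fold lower than Control in Rh2-30 + Dox (log2 difference -2.79, interval -4.15 to -1.79). These intervals come from the 2 counts alone and cover counting error only. Over the 6 libraries the Adipoq level spanned 8.65 on the log2 scale, and 3.51 without both Rh2-30 libraries. The libraries with Dox overlapped those without Dox, since Rh2-30 was the highest and Control the next to lowest.

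Cfd encodes complement factor D (adipsin), the serine protease that starts the alternative complement pathway and is made by fat cells (chromosome 10, 79890853 to 79892655). Its count was 287 in Control, 989 in Rh2-20, 13390 in Rh2-30, 2097 in Dox, 1281 in Rh2-20 + Dox and 20 in Rh2-30 + Dox. Per length this was 2.76, 9.30, 126, 20.4, 11.9 and 0.177 FPKM. Rh2-30 was 41.0-fold above Control (log2 difference 5.35, interval 5.19 to 5.53), and Rh2-30 + Dox was 14.97-fold below it (log2 difference -3.87, interval -4.64 to -3.25). The span of Cfd was 9.23 on the log2 scale over all libraries and 2.85 without both Rh2-30 libraries.

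Retn encodes resistin, a hormone that white fat of rodents secretes (chromosome 8, 3655770 to 3659818). Its count was 16 in Control, 43 in Rh2-20, 564 in Rh2-30, 139 in Dox, 97 in Rh2-20 + Dox and 0 in Rh2-30 + Dox. Its level was 0.222, 0.583, 8.27, 2.07, 1.37 and 0 FPKM in that order. With a floor of 3 counts for the library at 0, Retn was at least 5.56-fold lower in Rh2-30 + Dox than in Control, and it was 31.0-fold higher in Rh2-30 than in Control (log2 difference 4.91, interval 4.24 to 5.77). Lep, which encodes the satiety hormone leptin (chromosome 6, 29060221 to 29073876), was the exception among the adipokines. It had 4 counts in Dox and 0 in the other 5 libraries, and 3 counts is the limit that a count of 0 allows. The 4 counts of Lep in Dox lay within counting error of the 0 in Control (lower limit of the log2 difference -0.61), and no pair of libraries gives a fold. Rh2-30, with 3716 counts of Adipoq, had 0 counts of Lep.

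**Figure D1:**
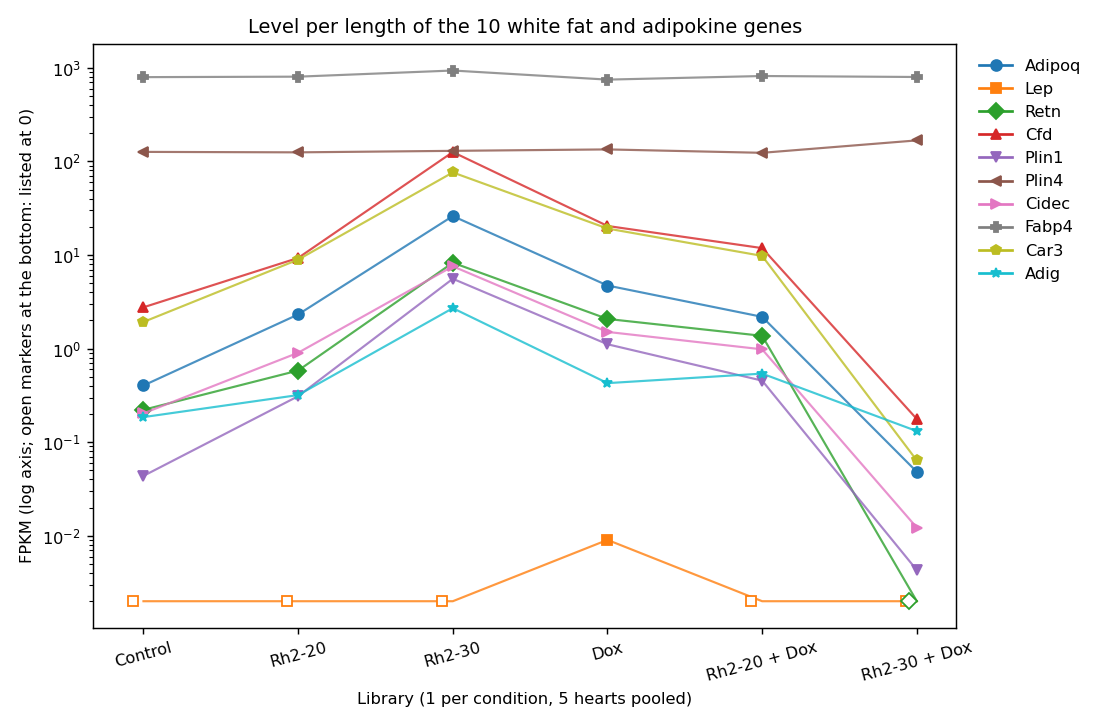
The vertical axis gives the level per length of each of the 10 genes in FPKM (log axis) and the horizontal axis the 6 libraries, with 1 point per library and lines that only join points of a gene. Open markers at the bottom stand for genes listed at 0. Fabp4 and Plin4 run nearly level near the top, while Adipoq, Cfd, Car3, Cidec, Plin1 and Retn peak in Rh2-30 and drop in Rh2-30 + Dox.

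Of the 3 lipid droplet genes, Plin1 and Cidec had the pattern of Adipoq and Plin4 did not. Plin1 encodes perilipin 1, which coats the droplet of fat cells and gates lipolysis (chromosome 7, 79721164 to 79732904). Its count was 10 in Control, 72 in Rh2-20, 1217 in Rh2-30, 232 in Dox, 107 in Rh2-20 + Dox and 2 in Rh2-30 + Dox. The FPKM values were 0.0437, 0.310, 5.57, 1.11, 0.455 and 0.0043. Plin1 had the largest difference of the members between Rh2-30 and Control, 107-fold (log2 difference 6.67, interval 5.86 to 7.80), and between Dox and Control, 23.0-fold (log2 difference 4.46, interval 3.62 to 5.6). In Rh2-30 + Dox its 2 counts gave a ratio to Control of 0.192, with a log2 interval of -5.61 to -0.15.

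Cidec promotes the fusion of droplets into one large droplet (chromosome 6, 113424634 to 113435760). Its count was 40 in Control, 180 in Rh2-20, 1550 in Rh2-30, 297 in Dox, 199 in Rh2-20 + Dox and 3 in Rh2-30 + Dox. The values per length were 0.203, 0.903, 7.57, 1.51, 0.982 and 0.0122 FPKM. The ratio to Control was 34.0 in Rh2-30 (log2 interval 4.64 to 5.58) and 0.0719 in Rh2-30 + Dox, where it rests on 3 counts (log2 interval -6.14 to -2.15). The gene model of Cidec overlaps Gm52871 and that of Plin4 overlaps Hdgfl2. Whether the counting used strand is not given in the sources used here, so reads of overlapping genes cannot be told apart.

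Plin4 encodes perilipin 4, a coat protein of small droplets that heart and skeletal muscle also make (chromosome 17, 56100587 to 56109948). Its count was 89000 in Control, 89442 in Rh2-20, 93533 in Rh2-30, 93136 in Dox, 90502 in Rh2-20 + Dox and 127115 in Rh2-30 + Dox. Its level lay between 124 and 134 FPKM in 5 libraries and at 168 FPKM in Rh2-30 + Dox, the library in which most other members were lowest. Plin4 was there 1.37-fold above Control (log2 difference 0.45, interval 0.44 to 0.47). The counting interval is narrow because the count is high and says nothing of the spread between hearts.

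Fabp4, Car3 and Adig differed from each other in pattern. Fabp4 encodes the fatty acid carrier of fat cells, which the capillary endothelium of the heart also makes (chromosome 3, 10204342 to 10208616). Its count was 60838 in Control, 63214 in Rh2-20, 73735 in Rh2-30, 56810 in Dox, 65367 in Rh2-20 + Dox and 64083 in Rh2-30 + Dox. It was the member with the highest level per length, 748 to 936 FPKM, or 748 to 817 FPKM without both Rh2-30 libraries, and it spanned only 0.20 on the log2 scale, or 0.11 without them. In Rh2-30 it was 1.06-fold above Control (log2 difference 0.09, interval 0.08 to 0.11). Fabp4 and Plin4 were the 2 members that varied by less than 2-fold over the 6 libraries, and their levels did not follow those of Adipoq. For these 2 genes the name of white fat rests on their known role, not on their pattern in these libraries. Of a summed level of the 10 genes of 1808 CPM in Control and 2125 CPM in Rh2-30, the other 8 gave 9.07 and 361 CPM.

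Car3 encodes carbonic anhydrase 3, abundant in white fat and slow muscle (chromosome 3, 14863538 to 14872381). Its count was 333 in Control, 1585 in Rh2-20, 13564 in Rh2-30, 3291 in Dox, 1766 in Rh2-20 + Dox and 12 in Rh2-30 + Dox, or 1.93, 8.93, 76.3, 19.2, 9.78 and 0.0638 FPKM. Car3 was 35.8-fold above Control in Rh2-30 (log2 difference 5.16, interval 5.004 to 5.32) and 28.9-fold below it in Rh2-30 + Dox (log2 difference -4.80, interval -5.82 to -4.03). Its model overlaps Gm41999. Adig encodes adipogenin, a small membrane protein of fat cells (chromosome 2, 158502612 to 158508198). Its counts were low, at 14 in Control, 24 in Rh2-20, 198 in Rh2-30, 31 in Dox, 41 in Rh2-20 + Dox and 10 in Rh2-30 + Dox. The level per length of Adig lay between 0.131 and 2.70 FPKM, and between 0.185 and 0.541 FPKM without both Rh2-30 libraries. Rh2-30 stood apart for this gene, 12.4-fold above Control (log2 difference 3.59, interval 2.85 to 4.53). For Rh2-20 and for Rh2-30 + Dox the interval of its difference from Control included 0 (-0.34 to 1.73, and -1.88 to 0.73).

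The order of the 6 libraries was the same for Cfd, Retn, Plin1, Cidec and Car3, 5 of the 10 members. It ran Rh2-30, Dox, Rh2-20 + Dox, Rh2-20, Control and Rh2-30 + Dox from high to low. For Adipoq the same order held with Rh2-20 and Rh2-20 + Dox exchanged, and these neighbours lay within counting error (log2 difference 0.08, interval -0.14 to 0.31). For Cidec the same 2 libraries also lay within counting error (log2 difference 0.12, interval -0.18 to 0.42). For Adig every neighbouring pair below Rh2-30 did. Across all members, 46 neighbouring pairs had a count in at least 1 library, and in 10 of them the counting interval covered 0. In all, 8 of 10 members were highest in Rh2-30 and 7 were lowest in Rh2-30 + Dox. For 10 of 10 the range of the 3 libraries with Dox overlapped that of the 3 without, for Lep only through counts of 0. The same counts were not taken over all genes, so they describe the members and no more is read from them.

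Much of the span lay in the pair of Rh2-30 libraries. Over all 6 libraries Car3 spanned 9.96 on the log2 scale, Plin1 8.80, Cidec 8.67, Adig 4.11 and Plin4 0.57, and without that pair 3.29, 4.46, 2.86, 1.38 and 0.17. Retn, at 0 in Rh2-30 + Dox, spanned 3.07 without the pair. A single library held most of each of these genes except Plin4. Rh2-30 accounted for 71.5% of the normalized level of Adipoq summed over the 6 libraries, 72.5% of Cfd, 72.5% of Plin1, 66.5% of Cidec, 64.1% of Car3, 63.8% of Retn and 60.5% of Adig. For Fabp4 the same share was 17.9% and for Plin4 14.9%, close to an even split. The 8 members other than Fabp4 and Plin4 summed to 9.07 CPM in Control, 35.8 in Rh2-20, 361 in Rh2-30, 80.2 in Dox, 41.6 in Rh2-20 + Dox and 0.633 in Rh2-30 + Dox.

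The question of how each treatment compared with vehicle was put to each treated library against Control, which all 5 comparisons share. In Rh2-20, 6 of the 9 members that passed the filter were at least 2-fold higher than in Control and 0 lower, where 3.31% of the 18328 genes were higher and 2.8% lower. In Rh2-30, 7 were higher and 0 lower (8.46% and 1.65% of all genes). In Dox, 7 were higher and 0 lower (5.43% and 3.58%), and in Rh2-20 + Dox again 7 and 0 (5.11% and 3.64%). In Rh2-30 + Dox, 0 were higher and 6 lower (4.06% and 6.85%). The members' median log2 difference was 1.67 in Rh2-20, 5.07 in Rh2-30, 2.86 in Dox, 2.16 in Rh2-20 + Dox and -2.79 in Rh2-30 + Dox, the last being -2.48 with Retn at its bound. The median over all genes compared lay between -0.0123 and 0.0334 in these 5 pairs. As the members were chosen on these values, their counts are set beside the background and no more is read from them.

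**Figure D2:**
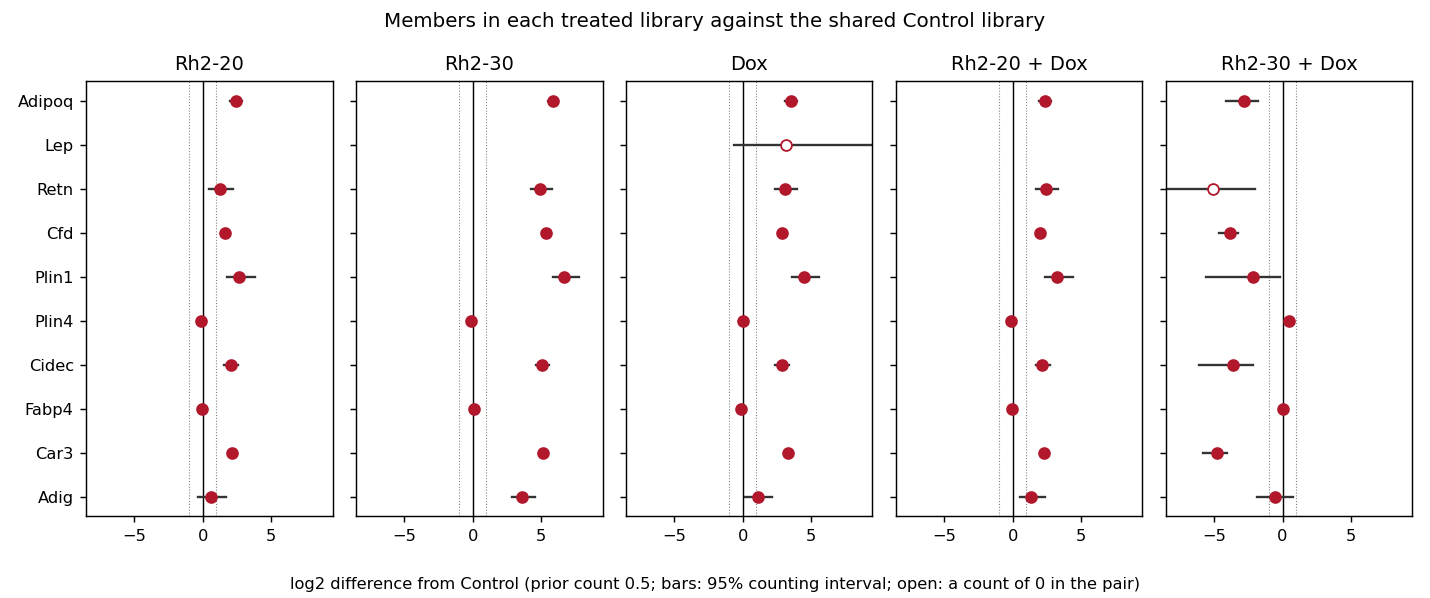
Each panel is a treated library, the horizontal axis is the log2 difference of each member from the shared Control library, and bars are 95% counting intervals. Open points mark pairs with a count of 0, and dotted lines mark 2-fold. Adipoq, Retn, Cfd, Plin1, Cidec and Car3 lie to the right in 4 panels and to the left in Rh2-30 + Dox, while Plin4 and Fabp4 stay near 0.

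Whether Rh2 moved the levels found under Dox was asked by setting each combination beside Dox, a library that both comparisons share. In Rh2-20 + Dox, 3 of the 9 members were at least 2-fold lower than in Dox and 0 higher (3.44% and 3.05% of all genes). These were Adipoq (2.24-fold lower, log2 interval -1.36 to -0.96), Plin1 (2.36-fold lower, interval -1.59 to -0.90) and Car3 (2.03-fold lower, interval -1.11 to -0.94). Cfd, Cidec and Retn were also lower, by less than 2-fold (log2 differences -0.84, -0.70 and -0.64). Adig was not separable from Dox (log2 difference 0.27, interval -0.43 to 1.0). In Rh2-30 + Dox, 7 of the 9 were at least 2-fold lower than in Dox and 0 higher (7.35% and 2.74%). Adipoq was 84.0-fold lower (log2 interval -7.61 to -5.41), Cfd 108-fold lower (interval -7.47 to -6.13) and Car3 284-fold lower (interval -9.10 to -7.34). Retn was at least 47.9-fold lower. The members' median log2 difference from Dox was -0.70 in Rh2-20 + Dox and -6.46 in Rh2-30 + Dox, and -6.31 in the latter with Retn at its bound. Over all genes these medians were 0.0038 and -0.0281.

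Set side by side at each Rh2 dose, the difference that went with Dox was upward without Rh2 and downward at 30 mg/kg for 7 members. At 20 mg/kg it was smaller for these 7, and either upward or within counting error. Without Rh2, Adipoq was higher in Dox than in Control by 3.51 on the log2 scale. At 20 mg/kg Rh2 the difference of Rh2-20 + Dox from Rh2-20 was -0.08 (interval -0.31 to 0.14). At 30 mg/kg it was -8.65 (interval -9.95 to -7.75), from 3716 counts to 8. Cfd, likewise, differed by 2.85, 0.35 and -9.23 on the log2 scale at the 3 Rh2 doses, and Car3 by 3.29, 0.13 and -9.96. At 20 mg/kg Retn was 2.22-fold higher in Rh2-20 + Dox than in Rh2-20 (log2 difference 1.14, interval 0.62 to 1.70), and Plin1 was 1.46-fold higher (log2 difference 0.54, interval 0.10 to 1.0). For Adig (0.73, interval -0.01 to 1.54) and Cidec (0.12, interval -0.18 to 0.42) the interval covered 0, as for Adipoq. Between the 2 Rh2 doses without Dox, 6 members were 8.13-fold (Car3) to 16.1-fold (Plin1) higher at 30 than at 20 mg/kg and Adig was 7.83-fold higher, while Fabp4 was 1.11-fold higher and Plin4 lay within counting error (log2 difference -0.01, interval -0.02 to 0.0033). With 1 library per condition these are differences between libraries, and dose and library cannot be told apart.

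The fit of the 3 libraries with Dox against the 3 without gave the same dependence. Its log2 difference for Adipoq was -1.95 with all libraries and 0.79 without Rh2-30, for Cfd -1.99 and 0.86, for Plin1 -1.80 and 1.51, for Car3 -1.49 and 0.85, and for Retn -1.29 and 1.43. Leaving out Rh2-30 turned the direction of each of these 5, and no p-value is given for members. For the fit of Rh2 against no Rh2, with Dox as a term, Adipoq stood at -0.10 with all libraries, at 4.99 without Dox and at -2.12 without Control.

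Outside Rh2-30 + Dox, the members Cfd, Car3, Cidec, Plin1 and Retn varied less relative to Adipoq than in level. All were chosen on their levels in these libraries. For each Adipoq count there were 3.00 to 5.13 Cfd counts over the 5 libraries other than Rh2-30 + Dox, where there were 2.50, although Adipoq itself ranged from 56 to 3716 counts in those 5. Cidec counts per Adipoq count lay between 0.375 and 0.714 over all 6 libraries and Plin1 counts between 0.179 and 0.357. Car3 ran between 3.65 and 5.95 in the 5 libraries and at 1.5 in Rh2-30 + Dox, where Adipoq had 8 counts and Car3 12. Retn ran between 0.130 and 0.306 in the 5 libraries and had 0 counts in Rh2-30 + Dox. Adig was less regular, from 0.0477 in Dox to 1.25 in Rh2-30 + Dox. Fabp4, in contrast, went from 19.8 counts per Adipoq count in Rh2-30 to 8010 in Rh2-30 + Dox. A ratio of raw counts compares the same gene pair between libraries and is not a ratio of levels per length.

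**Figure D3:**
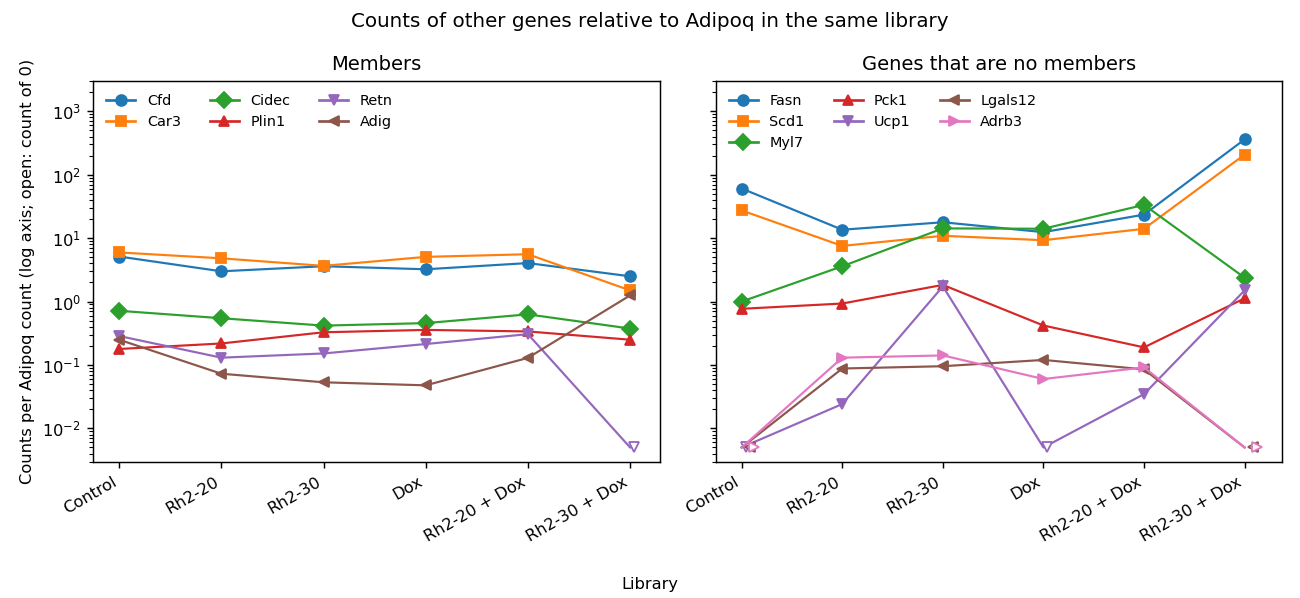
The vertical axis gives counts per Adipoq count in the same library (log axis) and the horizontal axis the libraries, with 6 members on the left and 7 genes that are no members on the right. Open markers stand for a count of 0. Cfd, Car3, Cidec and Plin1 run nearly level except for Car3 in Rh2-30 + Dox, while Fasn, Scd1, Myl7 and Ucp1 vary by over 10-fold against Adipoq.

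Other genes of the fat cell were taken from 9 lists written from textbook knowledge, with further lists of markers of other tissues. Unless a gene is a listed marker or an example by the fixed rule, it was named after its values were seen. In the comparison of the 3 libraries with Dox and the 3 without, edgeR's quasi-likelihood test called 5 of 18328 genes (0.0273%) at an adjusted p under 0.05, and 1852 had an unadjusted p under 0.05. For Rh2 against no Rh2 it called 0 (0.0%), with 1602 at an unadjusted p under 0.05, and DESeq2's Wald test called 425 and 242 genes in the 2 comparisons. Of the 153 genes on the lists that are no members, 144 passed the filter and 0 were called by edgeR in either comparison. At an unadjusted p under 0.05 there were 7 higher and 16 lower for Dox, and 10 higher and 3 lower for Rh2. DESeq2 called 8, and these were Angptl4, Car14, Fabp5, Gpam, Lepr and Plin2 for Dox and Cebpd and Gpihbp1 for Rh2.

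Among the 10 adipogenic transcription factors, 0 to 1 were at least 2-fold higher than Control in any treated library and 0 were lower, with a list median of 0.11 to 0.24 on the log2 scale. Pparg, the master regulator of the fat cell, had counts of 3947 in Control, 4219 in Rh2-20, 5081 in Rh2-30, 5696 in Dox, 4138 in Rh2-20 + Dox and 5076 in Rh2-30 + Dox, a flat profile beside Adipoq. Cebpa, which sustains the mature fat cell, was the one that passed 2-fold. Its count was 273 in Control, 522 in Rh2-20, 1681 in Rh2-30, 625 in Dox, 499 in Rh2-20 + Dox and 325 in Rh2-30 + Dox, 2.43 above Control in Rh2-30 on the log2 scale. The other examples by the fixed rule differed little between libraries with and without Dox, with log2 differences of -0.28 for Cebpb, 0.40 for Klf15 and 0.25 for Ebf2 (edgeR quasi-likelihood test, adjusted p = 0.82, 0.42 and 0.62).

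The 14 other white fat genes moved more. Of these, 10 were at least 2-fold higher than Control in Rh2-30, 8 in Dox, 4 in Rh2-20 and 4 in Rh2-20 + Dox, and 3 were at least 2-fold lower in Rh2-30 + Dox. Their median log2 difference was 3.44 in Rh2-30, 1.44 in Dox and -0.02 in Rh2-30 + Dox. Adrb3, the beta-3 adrenergic receptor of fat, had counts of 0 in Control, 43 in Rh2-20, 525 in Rh2-30, 39 in Dox, 29 in Rh2-20 + Dox and 0 in Rh2-30 + Dox, at least 154-fold above Control in Rh2-30. Lgals12, a galectin of the lipid droplet, had 0, 29, 355, 78, 27 and 0 counts in the same order. Sncg and Bscl2, the examples with the least negative difference in the Dox comparison, had log2 differences of -0.06 and -0.27 (edgeR, adjusted p = 0.93 and 0.68).

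In lipid synthesis, 10 of 16 genes were at least 2-fold higher than Control in Rh2-30, against 4 in Dox, 1 in Rh2-20 and 1 in Rh2-20 + Dox, with 1 lower in Rh2-30 + Dox. Pck1, whose enzyme supplies glycerol phosphate in fat, had 43 counts in Control, 307 in Rh2-20, 6800 in Rh2-30, 272 in Dox, 60 in Rh2-20 + Dox and 9 in Rh2-30 + Dox. Fasn (fatty acid synthase) went from 3389 counts in Control to 66132 in Rh2-30 and 2884 in Rh2-30 + Dox, and Scd1 (stearoyl-CoA desaturase) from 1530 to 40447 and 1662. Unlike Adipoq, which was 7.30-fold lower, both had log2 differences from Control of only -0.29 and 0.06 in Rh2-30 + Dox. Per Adipoq count, Fasn counts ran from 12.4 in Dox to 361 in Rh2-30 + Dox.

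Lipid uptake had 0 genes at least 2-fold higher in any treated library and 1 lower, Angptl4, an inhibitor of lipoprotein lipase, in each of the 3 libraries with Dox (log2 differences from Control of -1.10, -1.41 and -1.80). Its adjusted p was 0.25 by edgeR in the Dox comparison. Lipolysis had 2 of 8 genes higher in Rh2-30 and a median of 0.38 there. They were Adrb3, given above, and Pde3b, a phosphodiesterase that restrains lipolysis, 2.27 above Control on the log2 scale. Adipokine receptors had 1 of 6 genes past 2-fold in a single library, the leptin receptor Lepr, 1.04 above Control on the log2 scale in Rh2-30 + Dox, with adiponectin receptor Adipor1 within 0.44 of Control throughout. Of 10 other adipokines, 8 passed the filter. In Rh2-30, 3 of the 8 were at least 2-fold above Control, with log2 differences of 3.48 for Rbp4, the carrier of retinol, 1.96 for Agt (angiotensinogen) and 1.79 for Retnla, a relative of resistin, and the list median was 0.76. In Rh2-30 + Dox, 1 was higher (Lcn2, 1.40) and 3 were lower, at -1.96 for Apln, -1.53 for Retnla and -1.35 for Cfb, with a list median of -0.18. The alternative complement pathway around Cfd had 2 of 8 genes higher in Rh2-30 and 2 lower in Rh2-30 + Dox (Cfb and Cd55), with list medians of 0.68 and -0.47. The 10 relatives of the members in the perilipin, CIDE, FABP and carbonic anhydrase families had medians of -0.11 to 0.41, with Plin2 at 6211 counts in Control and 4401 in Dox, and Car14 at 2672 and 4776.

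**Figure D4:**
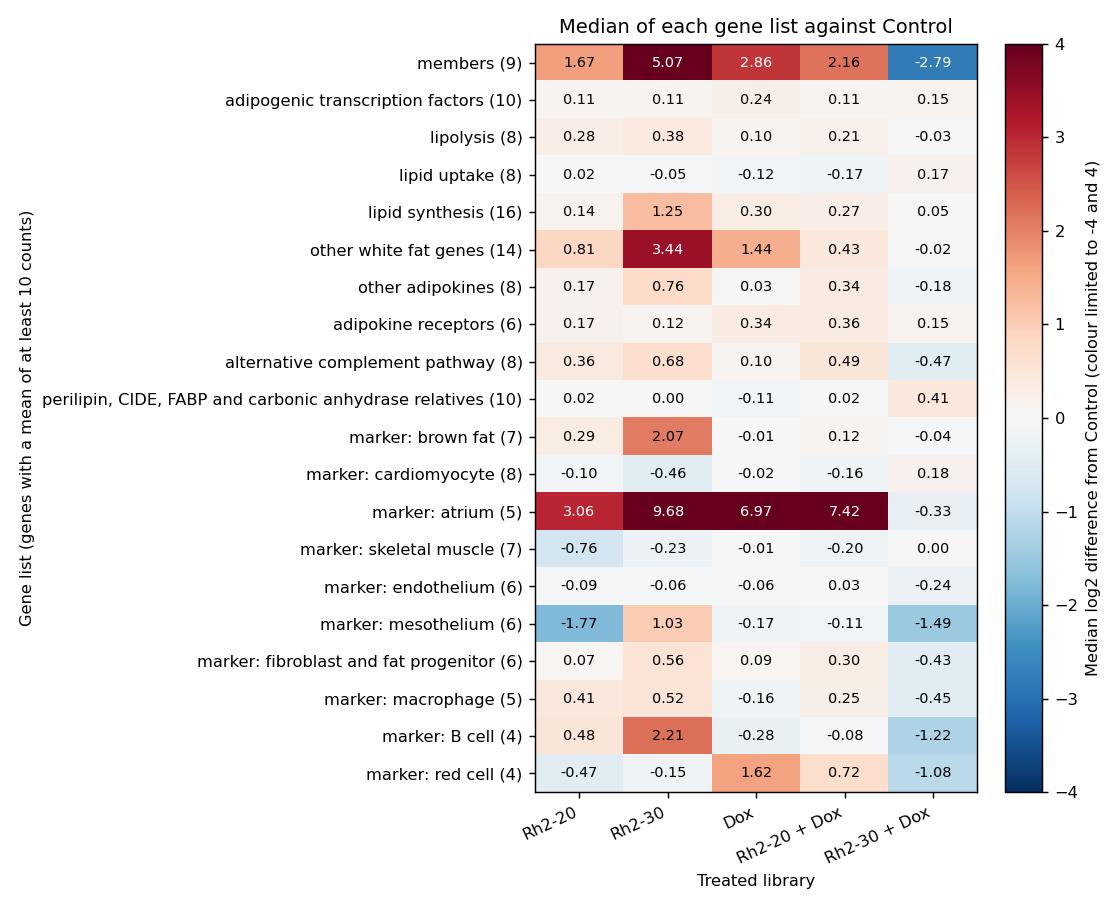
Each cell gives the median log2 difference from Control of a gene list in a treated library (columns), with the number of genes behind it in brackets. Colour runs from -4 to 4. The members, the other white fat genes and the atrial markers show the largest values in Rh2-30, while adipogenic transcription factors, lipid uptake, cardiomyocyte and endothelial markers stay within 0.46 of 0.

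Markers of other tissues moved with the members, and their part in the result was not tested. All 5 of 5 atrial markers were at least 2-fold above Control in Rh2-30, in Dox and in Rh2-20 + Dox, and 4 of 5 in Rh2-20. Their summed level was 45.7 CPM in Control, 62.1 in Rh2-20, 1668 in Rh2-30, 381 in Dox, 486 in Rh2-20 + Dox and 75.3 in Rh2-30 + Dox. In Control and in Rh2-30 + Dox most of this sum was Nppa, with 3607 and 6416 counts. Myl7, the atrial myosin light chain, had 56, 1187, 52896, 9134, 10613 and 19 counts, with the lowest value in Rh2-30 + Dox as for Adipoq, and 0 counts were listed there for Sln. The median of the list in Rh2-30 was 9.68 on the log2 scale, or 7.80 with Bmp10, at 0 in Control, set to its bound. In Dox it was 6.97, or 6.16 with Bmp10 at its bound.

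Brown fat markers separated from the white fat genes. Ucp1, the uncoupling protein that defines brown fat, had 0 counts in Control, 8 in Rh2-20, 6442 in Rh2-30, 0 in Dox, 11 in Rh2-20 + Dox and 12 in Rh2-30 + Dox. Elovl3 had 453 counts in Rh2-30 and 0 to 3 elsewhere, and Otop1 had 397 in Rh2-30 and 0 to 5 elsewhere. In Rh2-30, 5 of the 7 brown fat markers that passed the filter were at least 2-fold above Control, and 8 of 9 had a count. In Dox, where Adipoq had 650 counts, 5 of 9 were at 0 (Ucp1, Elovl3, Zic1, Otop1 and Lhx8), as in Control. The 650 Adipoq counts in Dox went with 0 of Ucp1, while 3716 in Rh2-30 went with 6442. In Rh2-30 + Dox, where both counts were low, 8 of Adipoq went with 12 of Ucp1. Ucp1 counts per Adipoq count were 1.5 there and 1.73 in Rh2-30. The summed level of the list was 153 CPM in Control and highest in Rh2-30, at 240 CPM. Outside Rh2-30 it was carried mostly by Cox8b, which heart muscle also makes. In Rh2-30 Cox8b had 10863 counts and Ucp1 6442, against 9760 and 0 in Control.

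Other marker lists were smaller or moved otherwise. B cell markers summed to 8.004 CPM in Rh2-30 against 1.05 to 2.52 in the other libraries, with 4 of 4 at least 2-fold above Control, and 3 of 4 were at least 2-fold below Control in Rh2-30 + Dox. Markers of the mesothelium, the lining of the heart surface, summed to 51.3 CPM in Rh2-30 and 22.8 in Rh2-30 + Dox, with 5 of 6 at least 2-fold below Control in Rh2-30 + Dox and also in Rh2-20, where the members were higher. Skeletal muscle markers summed to 3.08 to 9.91 CPM. Lung markers summed to 0.100 CPM in Rh2-20 and up to 7.94 CPM in Rh2-30, with Sftpc at 0 in all 6 libraries. Scgb1a1, the only lung marker that passed the filter, had 77 counts in Control, 9 in Rh2-20 and 730 in Rh2-30. It had 98 in Dox, 51 in Rh2-20 + Dox and 16 in Rh2-30 + Dox. Fibroblast and fat progenitor markers summed to 737 to 1211 CPM, and 0 of 6 passed 2-fold above Control in any library. In Rh2-30 + Dox 1 of 6 was at least 2-fold lower (Col1a1, log2 difference -1.17). Macrophage markers summed to 188 to 374 CPM, and 1 of 5 was at least 2-fold lower than Control in Rh2-30 + Dox (Adgre1, -1.07). Endothelial markers, at 1516 to 1771 CPM, and cardiomyocyte markers had 0 genes past 2-fold in any treated library. The cardiomyocyte sum was 25553 CPM in Control, lowest in Rh2-30 at 19939 and highest in Rh2-30 + Dox at 27709. The median log2 difference of that list from Control was -0.46 in Rh2-30 and 0.18 in Rh2-30 + Dox. Red cell markers were highest in Dox, 8009 CPM against 2653 in Control, and lowest in Rh2-30 + Dox at 1236.

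Genes with a profile like that of Adipoq were ranked by the root mean square difference of log2 levels over the 6 libraries, each gene centred on its mean, among 15249 genes whose mean count was 50 or more. The members Cidec (0.30), Cfd (0.34) and Plin1 (0.35) came first, with Car3 at 0.69 and Retn at 0.81. The 12 nearest genes that are no members were Cyp2e1, Tgm3, Aldh3b2, Slc7a10, Ugt8a, Fbxw24, Pon1, Pck1, Ces1f, Acsm3, Myl4 and Adamts8, with differences of 0.43 to 1.16. Cyp2e1, a cytochrome P450, had 242 counts in Control, 2003 in Rh2-20, 11659 in Rh2-30, 4191 in Dox, 2305 in Rh2-20 + Dox and 57 in Rh2-30 + Dox. Slc7a10, an amino acid transporter of white fat, had 30, 115, 1192, 260, 134 and 13, and Ces1f, a carboxylesterase, had 16, 169, 1182, 333, 117 and 0. Of these 12, Slc7a10 was on the list of other white fat genes, Pck1 on that of lipid synthesis and Myl4, an atrial myosin light chain, on that of the atrium. The libraries share their depth range and the ranking rests on 6 points, of which Rh2-30 and Rh2-30 + Dox set the ends. Without Rh2-30 + Dox, 5 of the 12 remained among the 12 nearest.

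**Figure D5:**
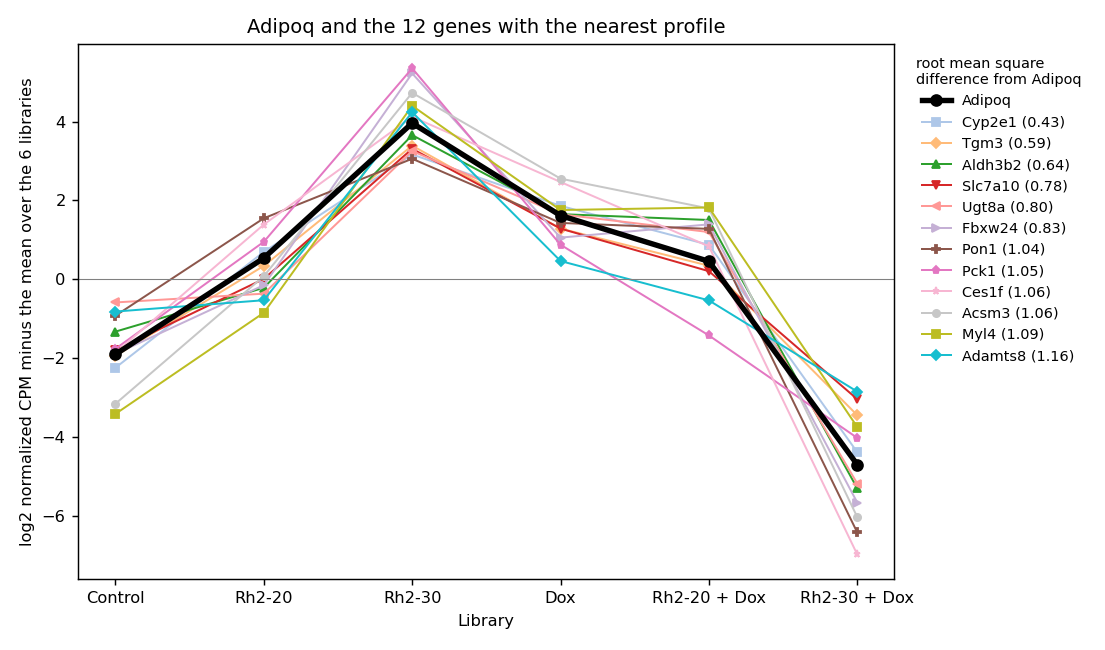
The vertical axis gives log2 normalized CPM minus the mean of each gene over the 6 libraries (horizontal axis), with Adipoq as the thick line and the 12 nearest genes that are no members as thin lines, their root mean square difference in brackets. All 13 lines are highest in Rh2-30 and lowest in Rh2-30 + Dox, with Myl4 nearly as low in Control.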

How the data were processed

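RNA-seq libraries were made from hearts with the SureSelectXT RNA Direct kit, 1 for each of 6 groups, and sequenced as reads of 101 bases. According to the submitters' processing notes and the methods, bcl2fastq 2.20.0, Trimmomatic, HISAT2 2.1.0 and StringTie 2.1.3b were used with mm10. The read count per gene was deposited by the authors as whole numbers without normalization. FPKM, scaled by transcript length and mapped fragments, and TPM, scaled to 1 fixed total per library, were deposited by the authors from StringTie. GRCm38.p6 is the RefSeq version of the same assembly and gave gene positions and promoter letters.

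Counts were normalized with TMM in edgeR 4.0.16 (R 4.3.3), with DESeq2 1.42.0 for alternatives and Python 3.11.15 with scipy 1.17.1 and matplotlib 3.10.9 for the rest. Log2 differences between single libraries used a prior count of 0.5, with 95% intervals that are exact binomial limits on the share of one library in both counts and cover counting error only. A count of 0 was taken as up to 3 counts. The libraries with Dox (3) were compared with those without (3), and those with Rh2 (4) with those without (2, Dox as a term), by the two-sided quasi-likelihood test of edgeR, adjusted by Benjamini-Hochberg over the 18328 genes whose mean count was 10 or more. Here each library stands for 5 pooled hearts and libraries of different dose serve as replicates. The quasi-likelihood fit for Dox was tested on simulated counts in which the 3 libraries of each side were true replicates, unlike the libraries here.

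The members and the gene lists were chosen with earlier results of these data known. Named genes were the 10 members, the markers, the 12 genes nearest to Adipoq and, in each list, genes past an adjusted p of 0.05, or else the 2 with the most negative and the 2 with the most positive difference for Dox. Alternatives were DESeq2's size factors and Wald test, a prior count of 2, FPKM or TPM plus 1, a 1.5-fold limit, no filter on low counts, other covariates, Rh2 dose as a block, each library left out, and a mean count of 200 or more for the ranking.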

Additional observations from a re-analysis of the deposited data

Results flagged for a closer look

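For 7 of the 10 genes the log2 difference that went with Dox had opposite signs without Rh2 and at 30 mg/kg Rh2. Dox was above Control, and Rh2-30 + Dox was below Rh2-30. The first difference less the second was 12.16 for Adipoq, 13.08 for Retn, 12.08 for Cfd, 13.26 for Plin1, 11.53 for Cidec, 13.25 for Car3 and 5.22 for Adig, on the log2 scale. With 1 library at each of the 4 corners, the difference was not tested. For Retn the value depends on the prior count of 0.5, since Rh2-30 + Dox had 0 counts. The summed levels of atrial, brown fat and B cell markers were also highest in Rh2-30, at 1668, 240 and 8.004 CPM. In Rh2-30 + Dox they were 75.3, 216 and 1.05 CPM, and in Control 45.7, 153 and 2.11 CPM. The atrial and brown fat sums in Rh2-30 + Dox thus stayed above Control. Most of the atrial sum in both libraries was Nppa, with 3607 counts in Control and 6416 in Rh2-30 + Dox. The atrial list median there was -0.33 on the log2 scale, with 2 of 5 markers at least 2-fold lower and 1 higher. Myl7 (56 counts in Control and 19 there) and Sln (14 and 0) were lower, as Adipoq was, and Bmp10 (0 and 6) was higher. Outside Rh2-30 the brown fat sum was mostly Cox8b, with 9760 counts in Control and 15727 in Rh2-30 + Dox. In Rh2-30 Cox8b had 10863 counts and Ucp1 6442, while Ucp1 had 12 in Rh2-30 + Dox. Elovl3 had 453 counts in Rh2-30 and 0 in Rh2-30 + Dox. The part of these markers in the members' values was not tested.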

How the results depend on the processing

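The labels give no replicate numbers that groups share, so for Dox the libraries could be matched only by Rh2 dose. None of the members' log2 differences between single libraries that were at least 2-fold turned sign under the 4 alternatives of scaling, prior count and unit. Of the others, 3 of Fabp4 and Plin4, at most 0.12 from 0, did so with FPKM plus 1, and 3 with TPM plus 1. Differences left their counting interval in 2 of 63 cases with DESeq2's size factors, 39 with TPM plus 1, 56 with FPKM plus 1 and 0 with a prior count of 2. A pseudocount of 1 lowers the folds of genes near 0 FPKM by its construction. With FPKM plus 1, members at least 2-fold from the reference numbered 3 higher in Rh2-20 against Control, 3 higher in Rh2-20 + Dox against Control, 2 lower in Rh2-30 + Dox against Control and 0 lower in Rh2-20 + Dox against Dox. With TPM plus 1 the last pair of counts was 3 and 1. With a 1.5-fold limit, 6 were lower in Rh2-20 + Dox than in Dox, in place of 3. Genes called for Dox by edgeR's quasi-likelihood test numbered 5, with 0 when Rh2 was a term, 0 when Rh2 dose was a block (an alternative added after seeing the data, with 1598 genes at an unadjusted p under 0.05), 425 by DESeq2's Wald test and 0 to 14 when each library was left out, with 14 without Rh2-30 + Dox, 3 without Rh2-30 and 0 without any other. The Wald test called 242 genes for Rh2 and 8 list genes, where edgeR called 0. Of the 12 genes nearest to Adipoq, 3 stayed among the nearest with FPKM plus 1 and 5 without Rh2-30 + Dox, the latter an alternative added after seeing the data. The causes were not tested. Depth limits Lep, Plin1, Cidec and Retn in Rh2-30 + Dox, where 3 counts or fewer were found.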
